A study of Mus musculus with 6 samples.

Results

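The 30 genes described here are a signature of reactive astrocytes, set down by name in 3 classes: 9 pan-reactive genes, which rise in reactive astrocytes whatever the insult, 9 inflammation-type genes and 12 injury-type genes. They were taken from general knowledge of reactive glia and were not chosen by their values, although earlier results of these arrays were known when the set was drawn up. Of the 30, 28 were measured through 53 probe sets that name a single gene, among 18193 genes so measured and 45101 probe sets in all. H2-T23 lay only on 2 probe sets that name a second gene too, so no value is given for it, and Ggta1 was not analysed here. Where a gene had several probe sets, the one with the highest mean log2 intensity stands for it.

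Total RNA came from whole retinas of adult mice, and each sample was hybridised to 1 Affymetrix whole-genome mouse array. There were 3 arrays of OC2-KO mice, which lack the transcription factor Onecut2 (OC2), and 3 of wildtype littermates (OC2-WT). No treatment is named for either genotype, and the labels give neither the sex nor the exact age. The knockout is present in every tissue from conception and not only in the retina, and the study states that many OC2-KO mice do not survive long after birth, so the arrays represent surviving animals. Whether every array came from its own animal is not in the labels, and the spread behind each p-value may therefore be technical in part.

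Astrocytes respond to damage or inflammation by reactive gliosis, in which they enlarge, build up intermediate filaments and secrete protease inhibitors, acute-phase proteins and matrix proteins. In mouse brain, neuroinflammation and ischaemic injury were found to induce a shared pan-reactive programme together with genes favoured by one insult or the other. The retina holds astrocytes along its inner surface and Müller glia across its whole depth, and both can become reactive. In whole tissue, fewer cells of a type and less RNA per cell cannot be told apart.

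Most pan-reactive genes measured higher on average in OC2-KO retinas. The median log2 difference, OC2-KO minus OC2-WT, was 0.90 over the 9 measured pan-reactive genes, 0.16 over the 7 measured inflammation-type genes and 0.14 over the 12 injury-type genes, against 0.0085 over all 18193 genes. The differences between the classes were not tested, and the inflammation-type median ran from 0.013 to 0.56 when arrays were left out. Of the 28 members, 21 lay above 0 and 7 below, where 51.3% of all genes lay above 0. The split was 8 of 9 in the pan-reactive class, 6 of 7 in the inflammation-type class and 7 of 12 in the injury-type class. Cd44 and S1pr3 are in the study's own list of genes higher on these arrays, so their direction is not independent evidence.

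No member passed the test after adjustment for all probe sets. Differences were fitted with limma on the log2 intensity of every probe set whose mean log2 intensity exceeded 7 in either genotype, and p-values were adjusted by Benjamini-Hochberg across these 21176 probe sets, of which 0% passed an adjusted p of 0.05 and 209 an unadjusted one. Of the 28 members, 14 passed this filter, 10 of them through both genotypes, Lcn2 and Gbp2 through OC2-KO only, and Tnfrsf12a and Stat5a through OC2-WT only. Every one of the 14 had an adjusted p of 1. At an unadjusted p of 0.05, A2m and Cd44 were higher and 0 members lower, where 0.732% of all genes past the filter were higher and 0.253% lower, and by the test that the study's methods name 0 of the 14 passed on the brightest probe set and 1 of 3 other probe sets past the filter did, in Cd44. In 4 members, Steap4, Cd44, A2m and Cd109, all 3 OC2-KO arrays lay above all 3 OC2-WT arrays, and 0 lay wholly below, where 2.87% of all genes lay wholly above and 2.25% wholly below. The Steap4 probe set was the brightest of its gene only through its OC2-KO values.

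**Figure D1:**
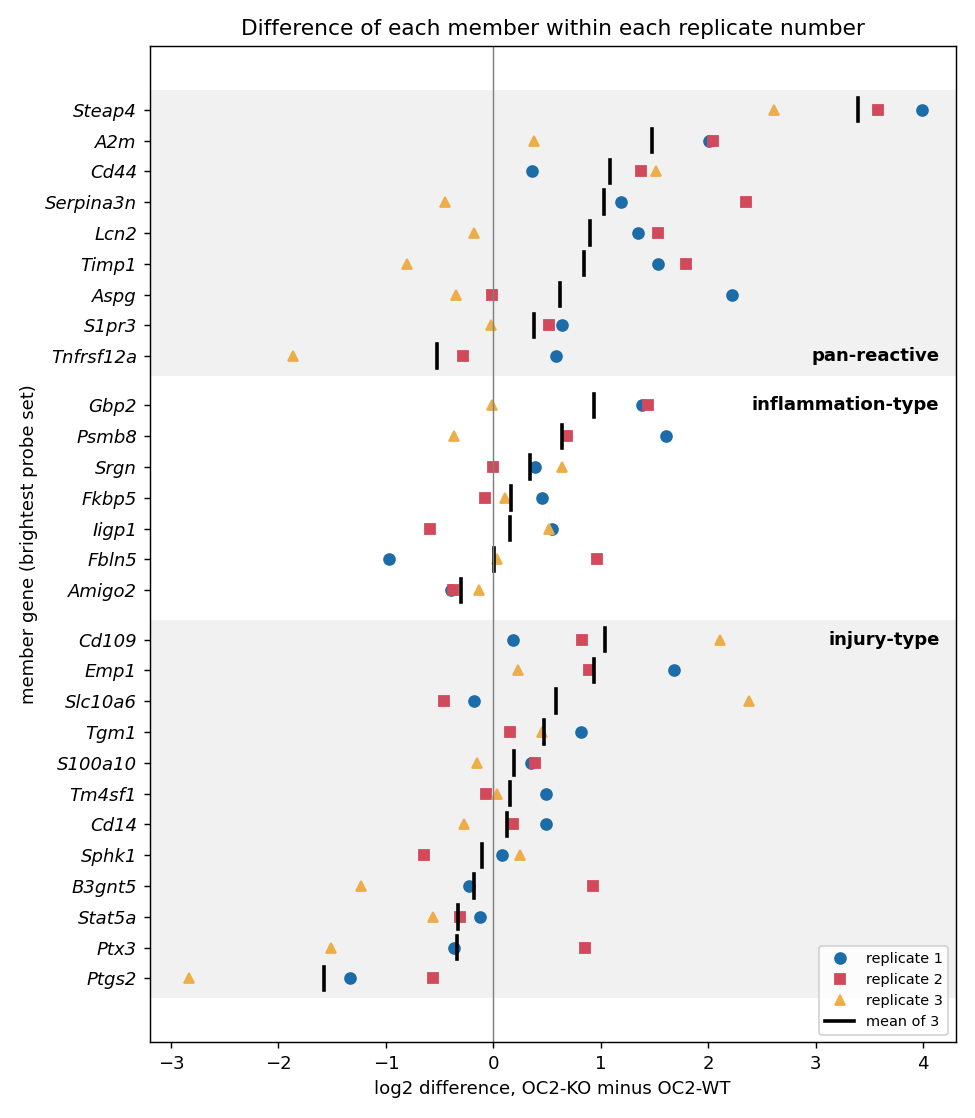
Log2 difference, OC2-KO minus OC2-WT, of the 28 measured members (rows, by class and then by mean), within replicate numbers 1, 2 and 3 of the sample titles (points), with the mean of the 3 as a bar. The pan-reactive rows reach furthest to the right, with Steap4 at 3.39, and their triangles, replicate number 3, lie to the left of the other points in every row but Cd44.

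The promoters of 3 members are shown, for the reasons given here gene by gene. A2m and Cd44, the members higher by the unadjusted test, are not among them. No promoter sequence was held for A2m, and that of Cd44 had no match to the motifs searched. The 3 shown all have matches and do not stand for the members that were higher. Steap4 had the largest log2 difference of all members as deposited, a value that rests on very dim OC2-WT readings, Lcn2 is the most widely used marker of the pan-reactive class, and Gbp2 had the largest difference of the inflammation-type class. Each sequence is the RefSeq window from 250 bases before to 50 bases after the gene start, 5′ to 3′ on the strand of the gene, in build GRCm38.p6, with matches to the motifs searched in capitals.
Steap4, chr5:7960222-7960521, plus strand: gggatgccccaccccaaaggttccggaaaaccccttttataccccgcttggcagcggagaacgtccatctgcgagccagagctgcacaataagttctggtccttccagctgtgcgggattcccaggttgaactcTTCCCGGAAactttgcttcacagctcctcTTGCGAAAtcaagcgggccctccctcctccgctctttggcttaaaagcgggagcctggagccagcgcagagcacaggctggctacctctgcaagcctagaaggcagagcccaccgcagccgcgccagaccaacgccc
Lcn2, chr2:32387690-32387989, minus strand: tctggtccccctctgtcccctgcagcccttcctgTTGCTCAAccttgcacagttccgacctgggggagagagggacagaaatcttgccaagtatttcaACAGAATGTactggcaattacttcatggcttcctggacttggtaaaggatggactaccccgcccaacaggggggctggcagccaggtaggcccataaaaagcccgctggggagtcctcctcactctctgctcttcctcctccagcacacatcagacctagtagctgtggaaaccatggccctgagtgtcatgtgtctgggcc
Gbp2, chr3:142620413-142620712, plus strand: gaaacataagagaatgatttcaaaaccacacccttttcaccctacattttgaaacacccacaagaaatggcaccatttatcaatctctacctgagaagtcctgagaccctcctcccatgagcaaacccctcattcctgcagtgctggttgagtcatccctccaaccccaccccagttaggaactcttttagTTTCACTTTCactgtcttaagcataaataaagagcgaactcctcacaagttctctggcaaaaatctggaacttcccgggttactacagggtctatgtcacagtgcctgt
In the Steap4 window, the capitals from base 135 match the STAT site TTCNNNGAA and those from base 164 the C/EBP site TTGCNNAA. In the Lcn2 window, a C/EBP match starts at base 35 and a match to a glucocorticoid response element, ACANNNTGT, at base 99. In the Gbp2 window, the capitals from base 192 match the interferon-stimulated response element GAAANNGAAA on the opposite strand.

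Steap4, a metalloreductase of iron and copper that inflammatory cytokines induce, did not overlap between the genotypes. Its log2 intensity was 6.85, 7.66 and 5.86 on OC2-KO arrays 1, 2 and 3, against 2.87, 4.08 and 3.25 on OC2-WT arrays 1, 2 and 3. The lowest OC2-KO value lay above the highest OC2-WT value by more than the whole spread of the OC2-WT arrays. The difference was 3.39 ± 0.57 (SE), but both means were below 7, so the gene was not tested in the main fit. Without the filter it had an unadjusted p of 0.00115 and an adjusted p of 1. A floor of 6 on the log2 scale left a difference of 0.84, since all OC2-WT values and that of OC2-KO array 3 then sat at the floor, less than the differences of A2m (1.47), Cd44 (1.08), Serpina3n (1.03) and Gbp2 (0.91) with the same floor. The other Steap4 probe set, dim in both genotypes, averaged 3.26 in OC2-KO and 3.67 in OC2-WT retinas and did not share the difference. On the OC2-WT arrays alone it was the brighter, at a mean of 3.67 against 3.40. The probe set that stands for Steap4 was thus the brightest only through its OC2-KO values. Its difference and lack of overlap are therefore not separate support.

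A2m encodes alpha-2-macroglobulin, a secreted trap for proteases. It measured 9.56, 10.44 and 9.44 on the OC2-KO arrays, against 7.55, 8.40 and 9.07 on the OC2-WT arrays. The genotypes did not overlap, and OC2-WT array 3 came nearest to the OC2-KO values. The difference was 1.47 ± 0.45 (SE), 2.78-fold, with an unadjusted limma p of 0.0125. It kept an unadjusted p under 0.05 when any single array was left out, at 0.00396 to 0.0429.

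Cd44, a cell-surface receptor for hyaluronan that reactive Müller glia carry, measured 8.49, 9.72 and 8.59 on the OC2-KO arrays, against 8.13, 8.34 and 7.07 on the OC2-WT arrays. The genotypes lay apart by a narrow gap, between OC2-KO array 1 and OC2-WT array 2. The difference was 1.08 ± 0.46 (SE), with an unadjusted p of 0.0486. A second probe set of Cd44 past the filter measured 8.49, 9.19 and 8.32 on the OC2-KO arrays, against 7.67, 7.81 and 7.56 on the OC2-WT arrays, again without overlap, and differed by 0.99 ± 0.28 (SE), with an unadjusted p of 0.00878 and an adjusted p of 1. The remaining Cd44 probe sets, dim and below the filter, differed by -0.66 and 0.30. The mean of all Cd44 probe sets differed by 0.43 and fell short of the filter. On the brightest probe set, the unadjusted p was 0.0838 without the filter and exceeded 0.05 without OC2-KO array 2 (0.152), OC2-KO array 3 (0.0544), OC2-WT array 1 (0.0625) or OC2-WT array 3 (0.145).

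Lcn2 encodes lipocalin 2, a secreted protein that binds iron-carrying siderophores and is a standard marker of reactive astrocytes. Its values were 8.11, 7.96 and 6.27 on the OC2-KO arrays, against 6.76, 6.43 and 6.45 on the OC2-WT arrays. OC2-KO arrays 1 and 2 stood well above all OC2-WT arrays, and OC2-KO array 3 was the lowest of the 6. The difference was 0.90 ± 0.49 (SE), 1.87-fold, with an unadjusted p of 0.105. Without OC2-KO array 3 it was 1.49, with an unadjusted limma p of 0.000934 and an adjusted p of 1. Without OC2-KO array 1 it was 0.57 (unadjusted p = 0.301), and without OC2-KO array 2 it was 0.64 (unadjusted p = 0.276), by limma. Lcn2 passed the filter through OC2-KO only, and OC2-KO array 3 was its lowest value, so the small p is not separate support.

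Serpina3n and Timp1, both inhibitors of secreted proteases, had the same shape. Serpina3n, a serine protease inhibitor, measured 9.50, 10.73 and 8.10 on the OC2-KO arrays, against 8.32, 8.38 and 8.54 on the OC2-WT arrays. Timp1, the tissue inhibitor of metalloproteinases, measured 7.61, 7.01 and 5.67 on the OC2-KO arrays, against 6.07, 5.22 and 6.47 on the OC2-WT arrays, and fell short of the filter. In both genes OC2-KO arrays 1 and 2 exceeded every OC2-WT array, while OC2-KO array 3 did not. The differences were 1.03 ± 0.60 (SE) for Serpina3n, with an unadjusted p of 0.129, and 0.84 ± 0.61 (SE) for Timp1. Without OC2-KO array 3, Serpina3n differed by 1.70 and Timp1 by 1.39. Serpina3n differed by only 0.39 without OC2-KO array 2, and Timp1 by 0.42 without OC2-KO array 1.

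The other 3 pan-reactive genes showed smaller or opposite differences. S1pr3, a receptor for sphingosine 1-phosphate, measured 10.83, 11.56 and 11.44 on the OC2-KO arrays, against 10.19, 11.04 and 11.46 on the OC2-WT arrays. Its genotypes overlapped, and the difference was 0.38 ± 0.38 (SE), with an unadjusted p of 0.344, and was 0.027 without OC2-WT array 1. Its other probe set past the filter measured 8.18, 8.12 and 7.87 on the OC2-KO arrays, against 7.81, 7.71 and 7.40 on the OC2-WT arrays, without overlap, and differed by 0.42 ± 0.22 (SE), with an unadjusted p of 0.096. Aspg, an asparaginase homologue, differed by 0.62 ± 1.39 (SE), with OC2-WT array 1 far below the others at 1.94 and a difference of -0.87 without it. Tnfrsf12a, the receptor of the cytokine TWEAK, was the pan-reactive gene with a negative difference, -0.52 ± 0.69 (SE). Its OC2-KO arrays ran from 5.29 to 8.30, wider than the OC2-WT range of 7.16 to 7.73 and on both sides of it.

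**Figure D2:**
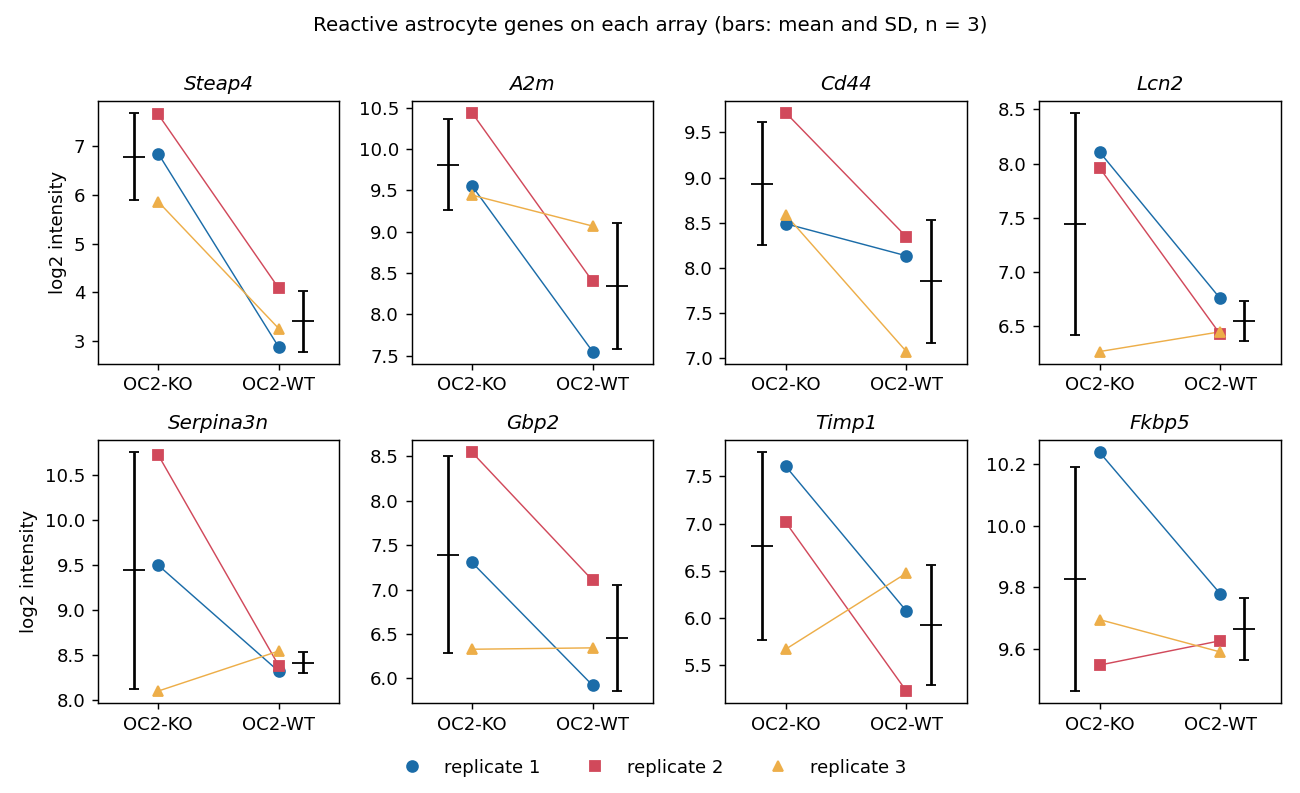
Log2 intensity (vertical axes, each with its own range) of 8 members on each array, OC2-KO at the left and OC2-WT at the right of every panel, with lines joining arrays of the same replicate number and bars for the mean and SD (n = 3). Steap4, A2m and Cd44 do not overlap between genotypes, while in Lcn2, Serpina3n and Timp1 the triangle of OC2-KO array 3 lies below that of OC2-WT array 3.

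Among the inflammation-type genes, Gbp2 had the largest difference and none separated the genotypes. Gbp2, an interferon-induced guanylate-binding protein, measured 7.31, 8.55 and 6.33 on the OC2-KO arrays, against 5.92, 7.10 and 6.34 on the OC2-WT arrays. Within replicate numbers 1 and 2 the OC2-KO array was higher by 1.38 and 1.44, and within number 3 the arrays were level (-0.016). The difference was 0.94 ± 0.58 (SE), with an unadjusted p of 0.147, and the gene passed the filter through OC2-KO only. The difference was 0.98 without OC2-KO array 1 (unadjusted p = 0.208, by limma). It was 0.36 without OC2-KO array 2, where the gene fell short of the filter. Without OC2-KO array 3, its lowest OC2-KO value, it was 1.47 (unadjusted p = 0.0259, adjusted p = 1, by limma). Psmb8, an immunoproteasome subunit, differed by 0.64 ± 0.61 (SE), below the filter, with 0.013 without OC2-WT array 1 and 1.05 without OC2-WT array 3. Iigp1, an interferon-inducible GTPase, differed by 0.16 ± 0.37 (SE), also below the filter.

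The other inflammation-type genes past the filter showed small differences. Fkbp5, a co-chaperone of the glucocorticoid receptor that glucocorticoids induce, measured 10.24, 9.55 and 9.70 on the OC2-KO arrays, against 9.78, 9.63 and 9.59 on the OC2-WT arrays. OC2-KO array 1 was its only value apart from the rest, and the difference was 0.16 ± 0.25 (SE). Amigo2, a leucine-rich adhesion protein of the cell surface, measured 9.50, 9.40 and 8.65 on the OC2-KO arrays, against 9.89, 9.78 and 8.78 on the OC2-WT arrays. It lay lower in OC2-KO within each of the 3 replicate numbers, by little, and the genotypes overlapped, with a difference of -0.30 ± 0.38 (SE) and an unadjusted p of 0.455. Srgn, the core protein of a proteoglycan of secretory granules, measured 7.12, 8.11 and 7.44 on the OC2-KO arrays, against 6.73, 8.11 and 6.80 on the OC2-WT arrays, a difference of 0.34 ± 0.44 (SE) that ran from 0.063 without OC2-KO array 2 to 0.79 without OC2-WT array 2. Fbln5, a glycoprotein of elastic fibres, differed by 0.0069 ± 0.50 (SE).

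Injury-type genes showed no common direction, and 3 of 12 passed the filter. S100a10, the partner of annexin A2, measured 10.63, 9.66 and 10.93 on the OC2-KO arrays, against 10.29, 9.28 and 11.08 on the OC2-WT arrays. Its values followed the replicate number more than the genotype, and the difference was 0.19 ± 0.52 (SE). Sphk1, the kinase that makes the ligand of S1pr3, measured 7.70, 7.16 and 7.48 on the OC2-KO arrays, against 7.62, 7.81 and 7.23 on the OC2-WT arrays, which overlapped throughout. Stat5a, a cytokine-activated transcription factor, measured 7.60, 6.29 and 6.54 on the OC2-KO arrays, against 7.72, 6.60 and 7.10 on the OC2-WT arrays. It was lower in OC2-KO within each replicate number, with a mean difference of -0.33 ± 0.43 (SE) and an unadjusted p of 0.463, whereas its other, dimmer probe set gave a difference of 1.77.

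Cd109, a membrane-anchored co-receptor of TGF-beta, was the injury-type gene whose genotypes did not overlap. It measured 2.43, 2.93 and 4.34 on the OC2-KO arrays, against 2.25, 2.10 and 2.23 on the OC2-WT arrays. All 6 values were very dim, and OC2-KO array 3 made most of the difference of 1.04 ± 0.53 (SE). Emp1, a tetraspan membrane protein, and Tgm1, a transglutaminase, were higher in OC2-KO within each replicate number, by 0.93 ± 0.99 (SE) and 0.47 ± 0.46 (SE), both below the filter. Ptgs2, the inducible cyclooxygenase, had the lowest difference of all members, -1.58 ± 0.81 (SE), at a mean of 1.60 in OC2-KO and 3.18 in OC2-WT retinas, and its other probe set gave 1.77 in the opposite direction. Slc10a6, a carrier of sulphated steroids, Tm4sf1, a tetraspan-like membrane protein, Cd14, the co-receptor for lipopolysaccharide, B3gnt5, a glycosyltransferase, and Ptx3, a pentraxin, lay between -0.34 and 0.58, and none passed the filter. Over all members, 10 of the 25 further probe sets differed from the brightest one by over 1 on the log2 scale, and 3 of the 25 passed the filter. Each of the 10 lay below the filter and on the other side of 0 from the brightest probe set of its gene. Besides those given above, they were in Iigp1 (-1.72), Fbln5 (-1.35), Amigo2 (0.98), S100a10 (-1.625), Emp1 (-0.68) and Tm4sf1 (-1.36). Counts of members above 0 rest on the brightest probe sets.

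**Figure D3:**
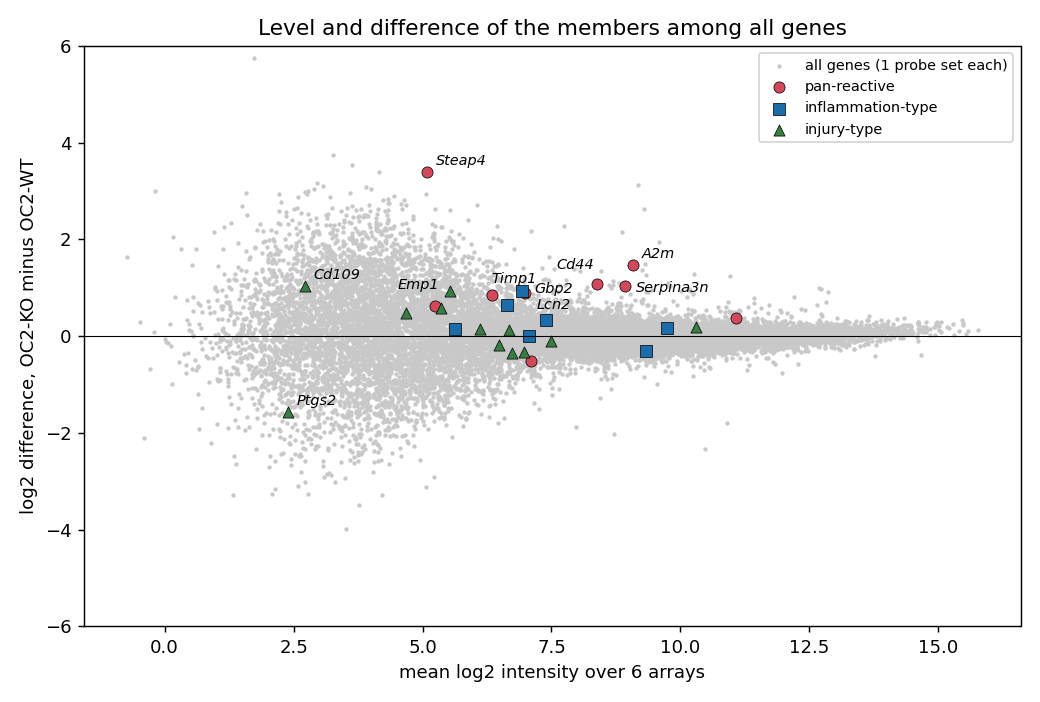
Log2 difference, OC2-KO minus OC2-WT (vertical axis), against the mean log2 intensity over the 6 arrays (horizontal axis), for all 18193 genes (grey) and the 28 members by class. The grey cloud is wide at low intensity and narrow at high intensity. A2m at 1.47 and Cd44 at 1.08 exceed the 95th percentile of genes with an intensity from 8 to 10. Cd109 and Ptgs2 lie within the 5th and 95th percentiles of genes up to 4.

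How far a difference stands out depended on intensity. Over all genes with a mean log2 intensity from 8 to 10, the 5th and 95th percentiles of the difference were -0.348 and 0.33, and A2m, Cd44 and Serpina3n among the 5 members in that range lay above it. From 6 to 8, which held 13 members, the percentiles were -0.664 and 0.728, and Lcn2, Gbp2 and Timp1 exceeded them. From 4 to 6 they were -1.38 and 1.62, and Steap4, on a probe set brightest only through OC2-KO, was the one of 6 members above that range. Above 10 they were -0.246 and 0.236, and S1pr3 exceeded them while S100a10 did not. Up to 4 they were -1.71 and 1.91, and Cd109 and Ptgs2 lay within them.

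The replicate number in the sample titles mattered for the pan-reactive genes. Within number 1, all 9 were higher in the OC2-KO array, within number 2 there were 7 of 9, and within number 3 there were 3 of 9. Their median difference was 1.35 within number 1, 1.53 within number 2 and -0.18 within number 3. Over all genes, 53.9%, 48.6% and 49.9% were higher within numbers 1, 2 and 3. A2m (2.01, 2.04 and 0.38), Steap4 (3.99, 3.58 and 2.61) and Cd44 (0.36, 1.37 and 1.51) were the pan-reactive genes higher within all 3 numbers. Counting all 28 members, 6 were higher and 3 lower within all 3 numbers, where 12.4% of all genes were higher and 11.5% lower. Differences over 1 were found for 9, 7 and 4 of the 28 members within numbers 1, 2 and 3, where 11.3%, 7.09% and 11.6% of all genes had one, and differences under -1 for 1, 0 and 4 members, where 8.18%, 6.83% and 9.83% of all genes had one. With the replicate number as a block in the limma fit, 4 members were higher at an unadjusted p of 0.05 and 0 lower, where 2.15% of all genes past the filter were higher and 1.38% lower. They were Lcn2 (0.0491), Cd44 (0.00766), A2m (0.00772) and Gbp2 (0.0297), all with an adjusted p of 0.999. Lcn2 and Gbp2 had passed the filter through OC2-KO only, and without the filter the blocked p was 0.128 for Lcn2, 0.0932 for Gbp2, 0.0394 for Cd44 and 0.0391 for A2m.

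Replicate number 3 differed in measured respects from the other 2, and its sample titles are worded in another form. The excess of 3′ over 5′ signal on the Actb control probe sets, in log2 units, grows as RNA is shorter and was 1.41, 0.744 and 3.39 on the OC2-KO arrays and 1.11, 0.715 and 2.95 on the OC2-WT arrays. It was highest on array 3 of both genotypes, and its values overlapped between the genotypes (two-sided exact permutation p = 0.6). That test does not use the replicate numbers, and within each number the Actb excess was higher on the OC2-KO array. On the Gapdh control probe sets the OC2-KO array was higher within numbers 1 and 3 and lower within number 2. Transcripts of the sex chromosomes gave a male pattern on OC2-KO array 3 and a female one on OC2-WT array 3 (2.20 and 12.60 on one Xist probe set), whereas the arrays of number 1 were both male and those of number 2 both female in pattern. Timp1 lies on the X chromosome. Summed lens transcripts were 23920 to 34250 intensity units on the OC2-KO arrays and 3723 to 40480 on the OC2-WT arrays, lowest on OC2-WT array 3. Summed pigment epithelium transcripts were 12990, 22640 and 65100 units on the OC2-KO arrays and 22710, 25210 and 80640 on the OC2-WT arrays, highest on array 3 of both genotypes. The part of these in the members' differences was not tested.

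Other genes of reactive astrocytes that are not among the 30 were mixed. Of 9 measured, 5 lay above 0 and 4 below, with a median of 0.29, where 51.3% of all genes lay above 0. Of the 7 past the filter, 2 had an unadjusted limma p under 0.05, both higher, where 0.732% of all genes past the filter were higher. Gfap, the intermediate filament of reactive glia that the study itself followed, measured 8.61, 9.0 and 8.31 on the OC2-KO arrays, against 6.12, 7.58 and 8.03 on the OC2-WT arrays, without overlap (difference 1.40 ± 0.49, SE; unadjusted p = 0.0247). Serping1, the inhibitor of complement C1, measured 8.97, 9.88 and 8.54 on the OC2-KO arrays, against 7.40, 8.11 and 7.84 on the OC2-WT arrays. It too lay wholly above OC2-WT, by 1.35 ± 0.38 (SE), with an unadjusted p of 0.00912. Osmr, the oncostatin M receptor, was higher within each replicate number, by 0.91 ± 0.43 (SE), with an unadjusted p of 0.0707. Vim, Hspb1, H2-D1 and Clcf1 lay between -0.096 and -0.0058, and C3 and Ugt1a1 were not analysed here.

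Signals and factors that act on reactive astrocyte genes were measured next. Of 13 measured, 10 lay above 0 and 3 below, with a median of 0.59, where 51.3% of all genes lay above 0. Of the 7 past the filter, 3 had an unadjusted limma p under 0.05, all higher. Over all genes past the filter 0.732% were higher at that threshold. Cebpd, a transcription factor of the acute-phase response, measured 11.55, 10.44 and 9.82 on the OC2-KO arrays, against 8.17, 8.03 and 7.72 on the OC2-WT arrays. The gap between genotypes exceeded the whole spread of the OC2-WT arrays, with a difference of 2.63 ± 0.43 (SE) and an unadjusted p of 0.000475, and the study had named this gene as higher. Its relative Cebpb measured 8.57, 8.75 and 8.18 on the OC2-KO arrays, against 7.61, 7.94 and 7.88 on the OC2-WT arrays (difference 0.69 ± 0.24, SE; unadjusted p = 0.0224). Socs3, the feedback inhibitor that STAT3 induces, measured 8.11, 7.72 and 8.07 on the OC2-KO arrays, against 7.43, 5.89 and 7.02 on the OC2-WT arrays (difference 1.19 ± 0.40, SE; unadjusted p = 0.0209), but passed the filter through OC2-KO only, at an OC2-WT mean of 6.78. In both genes every OC2-KO array lay above every OC2-WT array. Stat3 itself differed by 0.51 ± 0.33 (SE), higher within each replicate number, and Nr3c1, the glucocorticoid receptor, by -0.0024 ± 0.24 (SE). The cytokine genes Il1a, Tnf, Il1b, Il6, Lif and Osm all fell below the filter, and every adjusted p of this list was 1. C1qa, with a difference of 0.59 ± 0.35 (SE), is also a marker of microglia.

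**Figure D4:**
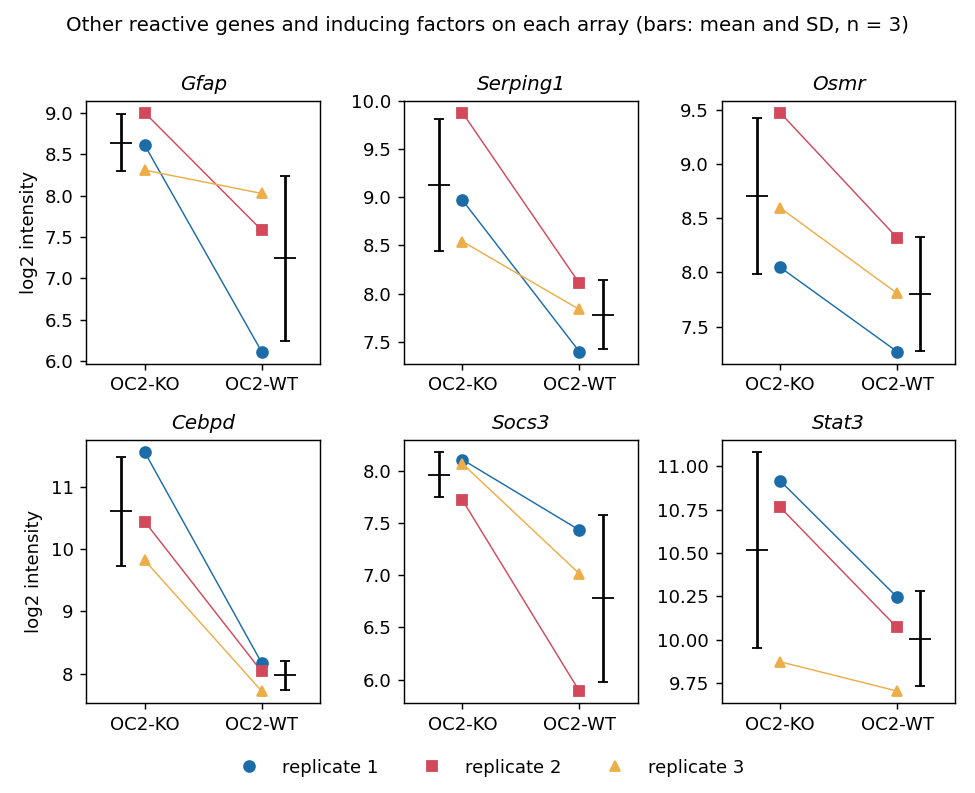
Log2 intensity (vertical axes, each with its own range) of 3 other reactive genes (upper row) and 3 inducing or feedback factors (lower row) on each array, OC2-KO at the left and OC2-WT at the right of every panel, with lines joining arrays of the same replicate number and bars for the mean and SD (n = 3). Each OC2-KO point lies above the OC2-WT point of its number, and Gfap, Serping1, Cebpd and Socs3 do not overlap between genotypes.

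Markers of the cell types that could carry these genes were measured beside them. The 7 measured astrocyte markers summed to 9733 to 14440 intensity units on the OC2-KO arrays and 8896 to 11860 on the OC2-WT arrays (two-sided exact permutation p = 0.3), with a median difference of 0.18. The brightest markers weigh most in this sum. Slc1a2 averaged 12.6 on the log2 scale in OC2-KO and 12.4 in OC2-WT, Aqp4 11.45 and 11.43, and Gfap 8.64 and 7.24. The list is one of astrocytes in general, and which retinal cells made these transcripts was not tested. The sum is therefore not a measure of astrocytes alone. Of the 7 astrocyte markers, 6 lay above 0, where 51.3% of all genes did. Gfap (1.40), Gja1 (0.93), Aldh1l1 (0.24) and Slc1a2 (0.18) were higher in OC2-KO within all 3 replicate numbers, where 12.4% of all genes were. The 8 Müller glia markers summed to 52710 to 73060 units on the OC2-KO arrays and 50700 to 69910 on the OC2-WT arrays (p = 0.6 by the same exact test), with a median difference of -0.07. The 11 measured microglia and macrophage markers summed to 3609 to 4666 units on the OC2-KO arrays and 2710 to 3318 on the OC2-WT arrays, and these ranges did not overlap (exact permutation p = 0.1, the smallest that 3 arrays against 3 allow). All 11 had a difference above 0, with a median of 0.59, where 51.3% of all genes lay above 0. Within each replicate number 6 of them were higher, where 12.4% of all genes were, led by Tyrobp at 1.05 among those past the filter. Of the members, Gbp2, Psmb8, Srgn, Cd14, Cd44 and Lcn2 are also made by immune cells, and the part of microglia or macrophages in their values was not tested. None of the 5 neutrophil and monocyte markers and none of the 4 lymphocyte markers measured passed the filter.

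Markers of vessels overlapped between the genotypes. The 8 endothelial markers summed to 2143 to 4189 units on the OC2-KO arrays and 1861 to 3691 on the OC2-WT arrays (exact permutation p = 0.6), and the 6 mural cell markers to 1185 to 1976 units on the OC2-KO arrays and 1095 to 1646 on the OC2-WT arrays (exact permutation p = 0.3). These tests do not use the replicate numbers. Within each of the 3 numbers the OC2-KO array had the higher sum of astrocyte, Müller glia, microglia and macrophage, endothelial and mural cell markers. So it was for the neutrophil and monocyte markers and the erythrocyte markers, none of which passed the filter. Sums of lymphocyte, lens, pigment epithelium and retinal neuron markers were not higher within all 3. The log2 ratio of the sums within numbers 1, 2 and 3 was 0.056, 0.089 and 0.064 for Müller glia. For microglia and macrophages it was 0.491, 0.492 and 0.307. Of the 8 Müller glia markers, 5 had a difference below 0. The labelled tissue was checked on 7 measured retinal neuron markers, which all passed the filter, and Calb1 of horizontal cells had a difference of -0.76 ± 0.23 (SE). Probe sets of Onecut2 itself, which the study places at the 3′ end of the gene in sequence that the knockout retains, read 8.52 to 9.21 on the OC2-KO arrays and 6.09 to 7.01 on the OC2-WT arrays on the brightest of them, so they do not check the labels. Iigp1 and Cd14 lie on chromosome 18 with Onecut2, with 41 and 223 protein-coding genes between.

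Motifs of factors that act on reactive astrocyte genes were counted in the promoter windows of all members, those of Steap4, Lcn2 and Gbp2 included. A window was held for 25 of the 30 members, 34 windows in all, the 2 unmeasured members included; A2m, Iigp1, S100a10, Cd109 and Cd14 had none. Both strands were searched, with N for any base. The STAT site TTCNNNGAA was in 17.6% of member windows and 8.3% of all 32851 windows, and its 5 members were Steap4, Psmb8, Sphk1, Emp1 and Tgm1. The 2 Sphk1 windows that hold it overlap and share 1 site. The C/EBP site TTGCNNAA was in 20.6% of member windows and 10.8% of all windows. Its 7 members were Steap4, Lcn2, Tgm1, Ptgs2, Ptx3 and the unmeasured Ggta1 and H2-T23. Ptgs2 and Ptx3 had differences of -1.58 and -0.34, and Steap4, Lcn2 and Tgm1 of 3.39, 0.90 and 0.47. The interferon-stimulated response element GAAANNGAAA was in 17.6% of member windows and 3.44% of all windows. Its 6 members were Gbp2, Srgn, Fbln5, Tgm1, Tm4sf1 and the unmeasured H2-T23. The glucocorticoid response element ACANNNTGT was in 11.8% and 6.85%, and its 4 members were Lcn2, Serpina3n, Slc10a6 and Tm4sf1. The NF-kappaB site (GGGA, any base, TT, any base, CC) was in 2.94% and 1.2%, in Ptx3 alone. Steap4 and Tgm1 were the members with both a STAT and a C/EBP match, Tgm1 in separate windows, and their differences were 3.39 and 0.47. Among the pan-reactive genes, the windows of Cd44, S1pr3, Timp1, Aspg and Tnfrsf12a matched none of these motifs. A match describes the letters of the window and is not evidence of binding.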

How the data were processed

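Retinal RNA of 3 OC2-KO and 3 OC2-WT samples was measured on Affymetrix arrays. Per the labels and methods, the authors amplified and biotinylated total RNA and applied MAS5 background correction and normalization (version not given in the sources used). The table they deposited holds linear intensities. On each array their 2% trimmed mean was 500, a scaling that hides any difference common to all genes. The number of arrays, 6, limits the precision. Array medians lay between 94.9 and 110 intensity units, and no arrays held identical values. The platform annotation gave 1 gene symbol for 34945 probe sets, several for 932 and none for 9160, and probe sets with several named no gene.

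The log2 of each deposited intensity was taken and 64 control probe sets were left out. Differences were fitted with limma 3.58.1 in R 4.3.3 (lmFit and eBayes, two-sided, no trend, no block, 4 residual degrees of freedom) on probe sets with a mean log2 over 7 in either genotype, as in the study's methods, and p-values were adjusted over all 21176 kept. Counts over genes used 11065 genes past the filter or all 18193. The fits were tested on simulated data with errors independent between arrays. That setting lacks the correlation found between arrays of the same replicate number. Groups came from the genotype labels. Members and lists were chosen with earlier results of these data known. Values per array were given for members past an unadjusted p of 0.05 or without overlap, and in each class for the 3 with the smallest p and the 2 brightest. Serpina3n and Timp1 were added after their values were seen.

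The replicate numbers of the titles were checked as pairs. After removal of the genotype means, arrays sharing a number correlated at 0.576, 0.59 and 0.585, and arrays of different numbers at -0.429 to -0.135, which pairs the arrays by number. What a number marks is not stated in the labels. The titles of number 3 have another form (WT OC2 Adult 3) than those of numbers 1 and 2 (OC2-WT adult 1). The block left 2 residual degrees of freedom. Alternatives were median centring, quantile normalization, a floor at 6, a filter at 8 or none, array weights, an intensity trend (plain or robust), the replicate block, the methods' t-test with equal or unequal variance, other choices of probe set, and leaving out arrays or replicate numbers. The block without a filter was added after seeing the data. Promoters were searched with Python 3.11.15.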

Additional observations from a re-analysis of the deposited data

How the results depend on the processing

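With 3 arrays per genotype and many members near background, few members can be resolved singly, and 0 probe sets passed an adjusted p of 0.05 under any alternative run. The count of members higher at an unadjusted p of 0.05 was 2. It was 1 with array weights, 4 with the replicate block, 3 with the block and no filter, and 0 with the methods' t-test and with its unequal-variance form. It ran from 0 to 6 when arrays or replicate numbers were left out, with 0 without replicate number 2, 6 without OC2-KO array 3 and 5 without replicate number 3, where 0.822% and 0.724% of all genes past the filter were higher, against 0.732% with all arrays. The members tested were then 18 and 17 rather than 14, and in both settings Steap4 and Timp1 were 2 of those higher, having passed the filter only in these settings through OC2-KO. The count of members lower ran from 0 to 1, the 1 without OC2-KO array 1. The pan-reactive median stayed above 0 throughout. The inflammation-type median ran from 0.013 without OC2-WT array 1 to 0.56 without OC2-KO array 1, and was 0.51 without replicate number 2. The injury-type median was 0 with the floor at 6, -0.0095 with array weights and -0.079 to 0.29 when arrays or numbers were left out, with the lowest value without OC2-WT array 3. Over 639 member results under the alternatives, 55 changed sign, in 18 members. The other 10 kept their sign: Lcn2, Steap4, S1pr3, Timp1, Cd44, Serpina3n, A2m, Gbp2, Psmb8 and Emp1. The pairing by replicate number moved no adjusted p below 0.05. The cause of these shifts was not tested.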
